A study of Mus musculus with 18 samples.

Results

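The question here was whether T cells given with the marrow changed gene expression in the same way in 2 parts of the mouse intestine 7 days after bone marrow transplantation. The 12 libraries used, of 18 in the series, were those whose library code is SI or LI, with 6 libraries under each code. All came from female BALB/cJ mice of 6 to 8 weeks, an inbred laboratory strain, and every mouse had been lethally irradiated and given 10000000 bone marrow cells. Mice of the BM group received marrow only, and mice of the BMT group received 1000000 T cells as well, so that irradiation and marrow are shared by both groups and the contrast is that of the added T cells. The donor strain is not stated in these sources. RNA came from isolated epithelial cells and was read after polyA selection. The library descriptions carry the same mouse numbers under both codes, namely 2, 4 and 5 for BM and 6, 9 and 10 for BMT. They are read here as 6 animals that gave 1 library per code each. No label states that they are separate animals, so the p-values speak of the spread among the samples only.

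Sample titles and library codes contradict each other: libraries with code SI are titled large intestine and libraries with code LI are titled small intestine. Of 24 genes typical of the small intestine, 23 were higher in all 6 code SI libraries than in any code LI library, and their summed level was 26493 to 39630 CPM (counts scaled by the library total to the usual unit) against 917 to 1172 CPM. Of 20 genes typical of the large intestine, 15 were higher in all 6 code LI libraries, with sums of 7499 to 16900 CPM against 525 to 1157 CPM. The markers therefore go with the codes and against the titles, and the sets are called code SI and code LI throughout. Library totals ran from 18845483 to 25610937 counts, so that the floor of 3 counts lay between 0.117 and 0.159 CPM (counting error only). The share of counts from the mitochondrial chromosome was 7.30 to 8.63% in code SI BM and 4.83 to 6.01% in code SI BMT libraries, and 9.72 to 10.7% in code LI BM and 6.24 to 7.46% in code LI BMT libraries. Of 16 pan-epithelial genes, 1 had a regional difference, and their summed level was 23816 to 35972 CPM over all 12 libraries.

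In graft-versus-host disease, donor T cells recognise host tissue and injure the intestinal epithelium, where stem cells at the crypt base renew absorptive enterocytes, mucus-secreting goblet cells, hormone-secreting enteroendocrine cells and chemosensory tuft cells. Paneth cells, which secrete antimicrobial peptides beside the stem cells, are a feature of the small intestine. The small intestine digests and absorbs nutrients and recovers bile acids, while the colon mainly takes up water, ions and bacterial fermentation products. In isolated epithelium, fewer cells of a type and less RNA per cell cannot be told apart.

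The BMT effect in a set is the log2 fold change of BMT over BM, and the regional difference is the effect in code SI minus the effect in code LI, tested in a model with the mouse as a block. Of 14006 genes tested in both sets, 1059 (7.56%) had a regional difference past an adjusted p of 0.05, with 491 (3.51%) higher in code SI and 568 (4.06%) lower. Most genes called in both sets nevertheless moved in 1 direction: of 2258 such genes, 2184 had the same sign and 74 the opposite sign. Fewer BMT effects passed the test in code SI (1700 rises and 1720 falls, 23.4% of 14621 genes tested) than in code LI (3033 rises and 3124 falls, 41.4% of 14880). Of the 1059 genes with a regional difference, 785 had the larger effect in code LI. The genes fell into 73 with opposite effects called in both sets (0.521%), 170 with an effect called in code SI only, 590 with an effect called in code LI only, 201 called in both sets with the same sign (116 rises, 0.828%, and 85 falls, 0.607%), and 25 called in neither. Restricted here means called in 1 set and missed in the other with the regional difference itself called, which does not show that the other set lacked an effect.

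These counts moved with single mice. Without mouse 2, 4, 5 or 6, between 215 and 293 genes were higher and between 252 and 360 lower in code SI, and without mouse 9 the counts were 1143 and 876. Each of the 73 opposite genes kept the signs of both effects whichever mouse was left out, while 16 of them kept both calls and the regional call throughout.

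**Figure D1:**
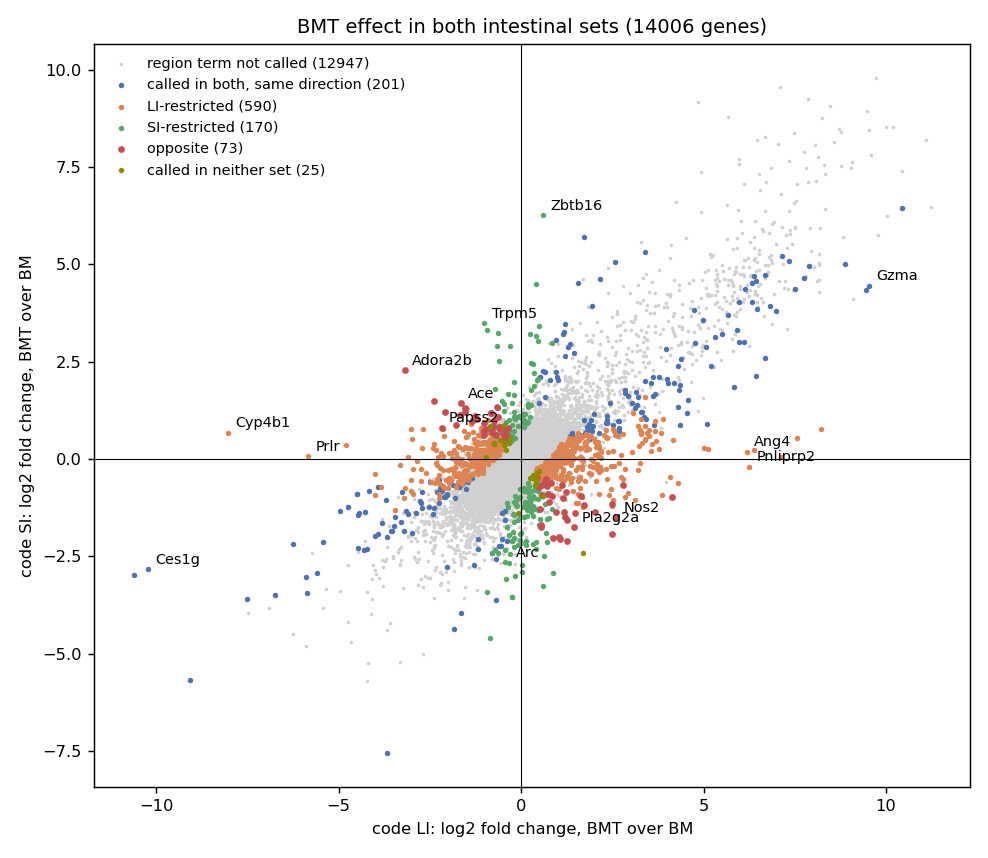
BMT effect in code SI (vertical axis) against the effect in code LI (horizontal axis), both as log2 fold change of BMT over BM, with 1 point per gene tested in both sets and colours for the response classes. Of the 14006 points, 9927 lie where both effects share a sign; the 73 opposite genes lie where the signs differ, and Cyp4b1, Prlr, Ang4 and Pnliprp2 lie far out along the code LI axis.

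The genes that rose in code SI and fell in code LI numbered 38 (0.271%) and included enzymes of the brush border and of detoxification. Ace encodes angiotensin-converting enzyme, a peptidase of the brush border (chromosome 11, 105967945 to 105989964, plus strand, GRCm38). Its level was 133, 191 and 239 CPM in code SI BM (mice 2, 4 and 5, the order used throughout) and 354, 419 and 678 CPM in code SI BMT (mice 6, 9 and 10). In code LI it was 16.9, 22.9 and 20.3 CPM in BM and 3.49, 5.21 and 10.2 CPM in BMT. Every BMT library lay above every BM library in code SI and below every BM library in code LI, a separation seen in 38.9% of all genes in code SI and 53.1% in code LI. Genes named for the size of their regional difference had to be free of overlap in each set where an effect was called. Their separation is therefore a condition of naming and no added support. The log2 effects were 1.44 ± 0.27 (standard error, as for each ± on a log2 value, n = 3 against 3) and -1.64 ± 0.35. The regional difference was 3.17 ± 0.23 (adjusted p = 5.42e-05).

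Papss2, which makes the activated sulfate donor used to sulfate mucins and bile acids (chromosome 19, 32620005 to 32667187, plus strand), was far higher in code LI at the start. Its level was 139, 139 and 109 CPM in code SI BM, 212, 173 and 267 CPM in code SI BMT, 2310, 1880 and 2255 CPM in code LI BM and 348, 417 and 636 CPM in code LI BMT. The groups did not overlap in either set, and the BMT level moved up in code SI and down in code LI. The effects were 0.80 ± 0.20 and -2.17 ± 0.24, with a regional difference of 3.01 ± 0.24 (adjusted p = 5.84e-05). The code SI rise was lost without mouse 5 (adjusted p = 0.0638, range over alternatives 0.00021 to 0.0638). Ephx2, an epoxide hydrolase that acts on fatty acid epoxides, counted 32.4, 29.3 and 35.8 CPM in code SI BM against 66.1, 51.6 and 89.1 CPM in BMT, and 18.8, 18.1 and 19.8 CPM in code LI BM against 5.41, 4.89 and 7.29 CPM in BMT. These 4 groups of Ephx2 values separated without overlap within each set. The regional difference was 2.79 ± 0.20 (adjusted p = 5.42e-05).

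Adora2b, a low-affinity adenosine receptor, had the largest regional difference of the genes named in this class, at 5.58 ± 0.71 (adjusted p = 0.00104). It was low in code SI, at 0.273, 0.136 and 0.205 CPM in BM and 1.54, 0.558 and 0.9 CPM in BMT, and fell in code LI from 6.62, 8.08 and 8.94 CPM to 0.403, 0.404 and 1.76 CPM. The code SI rise thus rests on 13 counts in all BM libraries together and 63 in all BMT libraries. Ctse, the protease cathepsin E, had effects of 1.50 ± 0.49 in code SI and -2.38 ± 0.26 in code LI. Its code SI rise was lost without mouse 2, 4, 5, 6 or 9 (adjusted p up to 0.185, range over alternatives 0.04 to 0.185), and the code LI fall was not. With all mice, the code SI rise was also lost with DESeq2 (adjusted p = 0.111) and without the low-count filter (adjusted p = 0.0507).

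Among 15 tested brush border hydrolases, 5 had a regional difference, all higher in code SI. Medians of the BMT effect were 0.40 in code SI, where 5 rose and 1 fell, and -0.60 in code LI, where 4 rose and 6 fell (over all genes tested in both sets, 11.8% rose and 11.2% fell in code SI, and 20.1% and 20.4% in code LI). Anpep, aminopeptidase N, counted 4850, 5556 and 6088 CPM in code SI BM and 6807, 9955 and 12430 CPM in BMT. Code LI held 25, 27.5 and 44.7 CPM in BM and 9.84, 8.62 and 9.63 CPM in BMT. Its groups did not overlap in either set and the regional difference was 2.56 ± 0.30 (adjusted p = 0.000674). The code SI rise of Anpep was lost without mouse 2, 4, 5 or 9 (adjusted p 0.0534 to 0.092, range over alternatives 0.00017 to 0.092). Sis, sucrase-isomaltase, which splits sucrose and starch products, had effects of 1.12 ± 0.35 and -1.27 ± 0.43. In code SI the Sis groups overlapped, at 600, 1056 and 1207 CPM in BM and 2433, 991 and 2514 CPM in BMT, and its opposite class was lost whichever mouse was left out (adjusted p up to 0.141 in code SI, range over alternatives 2.64e-07 to 0.141, and up to 0.174 in code LI, range 0.00166 to 0.174). Dpp4, dipeptidyl peptidase 4, fell by 1.55 ± 0.18 in code LI, with 0.71 ± 0.26 in code SI, and Enpep, glutamyl aminopeptidase, rose by 0.84 ± 0.24 in code SI, with -0.60 ± 0.26 in code LI. The regional difference of Enpep was lost without mouse 4 or 5 (adjusted p up to 0.0619), and its code SI rise without mouse 2, 4 or 5 (up to 0.101). Its code LI effect passed the test without mouse 2 (adjusted p = 0.0205, up to 0.41 without other mice). The code SI effect of Dpp4 passed without mouse 9 (adjusted p = 0.0217, up to 0.222 without other mice).

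Other genes of this class, singled out after their values were seen, were Ugdh, which makes the sugar donor for glucuronidation (1.02 ± 0.19 in code SI and -1.21 ± 0.13 in code LI), and Gclc, the rate-limiting enzyme of glutathione synthesis (1.19 ± 0.21 and -0.83 ± 0.14). Entpd5, a nucleoside diphosphatase, had effects of 0.92 ± 0.14 and -1.03 ± 0.13. Hnf4g, an enterocyte transcription factor, had effects of 0.73 ± 0.24 and -1.01 ± 0.16. Its code SI rise was lost without mouse 2, 5, 6 or 10 (adjusted p 0.0308 to 0.174 over the mice left out). The calls of Ugdh, Gclc and Entpd5 held without each mouse in turn.

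The reverse class, falls in code SI with rises in code LI, held 35 genes (0.25%). Nos2, the inducible nitric oxide synthase (chromosome 11, 78920787 to 78960254, plus strand), counted 179, 155 and 165 CPM in code SI BM and 66, 55.2 and 50.2 CPM in BMT. In code LI it counted 29.8, 16.1 and 16.9 CPM in BM and 67.2, 143 and 165 CPM in BMT. The BMT libraries of both sets thus stood apart from their controls in opposite directions, with effects of -1.50 ± 0.15 and 2.61 ± 0.35 and a regional difference of -4.06 ± 0.38 (adjusted p = 0.00017).

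Pla2g2a, a secreted phospholipase of Paneth cells that kills bacteria (chromosome 4, 138831857 to 138835186, plus strand), counted 6000, 5833 and 4682 CPM in code SI BM and 1139, 2004 and 1626 CPM in BMT. In code LI it counted 430, 383 and 327 CPM in BM and 907, 1132 and 1057 CPM in BMT. All 3 code SI BMT libraries were below, and all 3 code LI BMT libraries above, their controls. Its effects differed between sets by -3.24 ± 0.23 (adjusted p = 5.07e-05). Mmp7, the protease that activates Paneth cell defensins, counted 522, 488 and 413 CPM in code SI BM and 178, 291 and 218 CPM in BMT. Code LI held 23.5, 36.5 and 18.7 CPM in BM and 57.4, 70.9 and 45.7 CPM in BMT. Neither set overlapped between groups, and the effects of Mmp7 were -1.01 ± 0.20 and 1.14 ± 0.24.

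Fam234b, a membrane protein, counted 79.5, 88.5 and 91.1 CPM in code SI BM and 14, 19 and 32.6 CPM in BMT. Code LI held 0.357, 0.359 and 0.586 CPM in BM and 2.73, 2.2 and 2.48 CPM in BMT. The separation of groups was complete in both sets, as the naming rule required. The regional difference was -4.51 ± 0.40 (adjusted p = 0.000133). Sema7a, a semaphorin bound by integrins, had effects of -0.65 ± 0.18 and 2.78 ± 0.26. Its fall in code SI was lost without mouse 2, 5 or 6 (adjusted p 0.0573 to 0.115, range over alternatives 0.00499 to 0.115). Phlda3, a p53 target that restrains Akt signalling, had effects of -1.58 ± 0.37 and 1.26 ± 0.25, with levels of 0.3 to 3.5 CPM. Slco3a1, an organic anion transporter singled out after its values were seen, counted 8.46, 15.9 and 17.8 CPM in code SI BM and 8.7, 6.09 and 5.83 CPM in BMT, so that its code SI groups overlapped. In code LI it counted 0.204, 0.18 and 0.156 CPM in BM and 3.62, 3.32 and 2.67 CPM in BMT, with no overlap. The code SI fall of Slco3a1 was lost without mouse 4, 5, 9 or 10 (adjusted p 0.00826 to 0.108 over the mice left out).

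Of 14 monocyte and macrophage genes tested, 1 was opposite. Itgam, the integrin CD11b of monocytes and neutrophils, counted 6.5, 4.84 and 6.65 CPM in code SI BM and 1.54, 2.92 and 3.34 CPM in BMT. Code LI held 0.255, 0.269 and 0.508 CPM in BM and 4.16, 1.21 and 0.62 CPM in BMT. The code LI BMT value of mouse 6 was well above the other two. The regional difference of -3.41 ± 0.87 was called (adjusted p = 0.0357) but was lost without mouse 2, 4 or 5 (adjusted p = 0.104, 0.0966 and 0.0688, range over alternatives 1.54e-10 to 0.104). Its fall in code SI was lost without mouse 2, 5, 6 or 9 (adjusted p up to 0.0855) and its rise in code LI without mouse 2 (adjusted p = 0.0591).

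**Figure D2:**
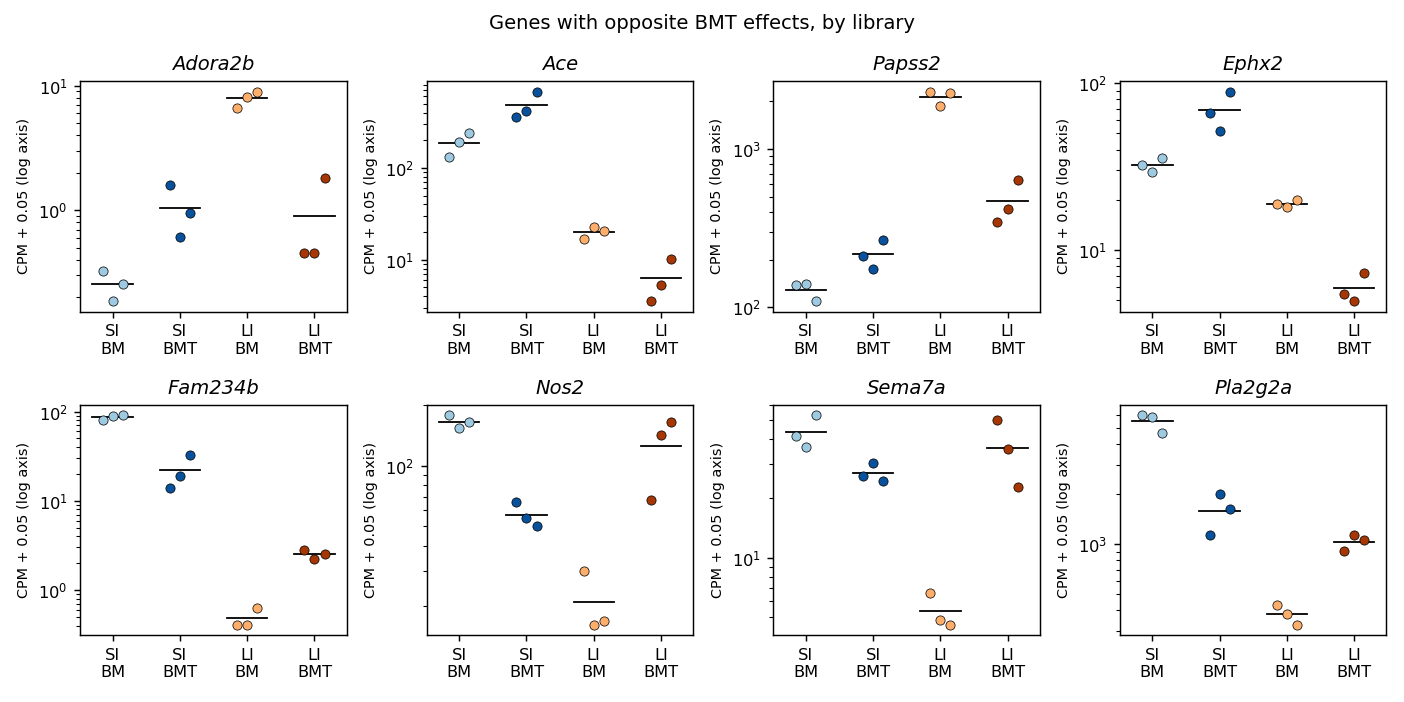
Levels of 8 opposite genes in CPM + 0.05 on a log axis, with 1 point per library and a line at the group mean, for BM and BMT in code SI (blue) and code LI (orange). In the upper row BMT points lie higher in code SI and lower in code LI, and in the lower row the directions are reversed, as for Nos2 with 50.2 to 66 CPM in code SI BMT and 67.2 to 165 CPM in code LI BMT.

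Upstream sequences are shown for 5 genes on which these contrasts turn: a pair that rose in code SI and fell in code LI (Ace and Papss2), 1 with the reverse (Mmp7), and 1 rise and 1 fall called in code LI only (Ang4 and Cyp4b1). Each is the 250 bases before the RefSeq gene start nearest to the start in the deposited table (RefSeq, GRCm38.p6), written 5′ to 3′ on the strand of the gene, and 80 of the 109 genes named by the rule had an entry. Capitals mark matches, on either strand, to TATAAA (the core promoter box bound by TBP), TTCNNNGAA (the STAT site GAS), GAAANNGAA (ISRE core), TTTATG (CDX) or CAAAGTCCA (HNF4).
Ace, chr11:105967698-105967947, plus strand: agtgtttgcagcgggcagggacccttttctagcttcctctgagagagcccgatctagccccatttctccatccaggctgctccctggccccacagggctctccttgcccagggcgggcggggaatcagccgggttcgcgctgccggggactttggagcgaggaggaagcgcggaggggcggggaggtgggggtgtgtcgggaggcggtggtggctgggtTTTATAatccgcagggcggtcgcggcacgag
Papss2, chr19:32619755-32620004, plus strand: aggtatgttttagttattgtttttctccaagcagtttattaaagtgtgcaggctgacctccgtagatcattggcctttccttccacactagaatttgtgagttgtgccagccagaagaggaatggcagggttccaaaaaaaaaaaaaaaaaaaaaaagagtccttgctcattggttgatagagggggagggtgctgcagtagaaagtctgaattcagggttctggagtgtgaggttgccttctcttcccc
Mmp7, chr9:7691840-7692089, plus strand: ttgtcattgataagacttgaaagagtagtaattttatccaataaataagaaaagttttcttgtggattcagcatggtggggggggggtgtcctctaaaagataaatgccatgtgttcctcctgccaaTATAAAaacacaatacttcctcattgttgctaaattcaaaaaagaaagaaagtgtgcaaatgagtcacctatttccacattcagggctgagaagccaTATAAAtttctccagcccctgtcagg
Ang4, chr14:51773591-51773840, minus strand: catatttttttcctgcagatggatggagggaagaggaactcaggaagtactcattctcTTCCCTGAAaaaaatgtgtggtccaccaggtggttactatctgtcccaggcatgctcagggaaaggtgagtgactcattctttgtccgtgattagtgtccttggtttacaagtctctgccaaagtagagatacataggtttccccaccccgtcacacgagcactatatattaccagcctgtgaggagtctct
Cyp4b1, chr4:115647722-115647971, minus strand: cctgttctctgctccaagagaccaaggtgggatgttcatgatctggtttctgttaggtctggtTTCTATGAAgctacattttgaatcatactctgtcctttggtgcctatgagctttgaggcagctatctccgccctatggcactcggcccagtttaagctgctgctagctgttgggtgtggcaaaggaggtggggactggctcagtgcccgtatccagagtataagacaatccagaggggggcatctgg
The letters of the core promoter box were found in Ace at -31 to -26 on the reverse strand and in Mmp7 at -123 to -118 and at -26 to -21, counted from the start site, and they occur in 12.4% of 32851 promoters of the same length. The GAS letters were found in Ang4 at -192 to -184 and in Cyp4b1 at -187 to -179, and occur in 7.02% of promoters. The other letters occur in 7.13% (ISRE core), 10.8% (CDX) and 0.384% (HNF4) of promoters and were not matched in these 5 windows. Matches describe letters only.

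Falls called in code LI only numbered 278 (1.98%) and took some genes to the floor. Cyp4b1, a cytochrome P450 that oxidises fatty acids and foreign compounds (chromosome 4, 115624725 to 115647723, minus strand), counted 28.8, 22.7 and 25.5 CPM in code LI BM and 0.179, 0.0898 and 0 CPM in BMT. In code SI it counted 26.7, 15.7 and 24 CPM in BM and 37.8, 23.1 and 41.4 CPM in BMT. The sets had like BM levels, and after T cells the code LI libraries were nearly empty of it while the code SI groups overlapped. Between the sets the effects differed by 8.71 ± 0.46 (adjusted p = 6.65e-06), and the effect in code SI was 0.67 ± 0.27, which passed the test without mouse 9 (adjusted p = 0.0315, range over alternatives 0.0098 to 0.31).

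Prlr, the prolactin receptor, counted 21.9, 17.1 and 23.1 CPM in code LI BM and 0.358, 0.0898 and 0.62 CPM in BMT. Code SI held 40.9, 68.7 and 68.6 CPM in BM and 46.9, 30.1 and 101 CPM in BMT. Only the code LI groups were separate. The effects were -5.84 ± 0.39 and 0.08 ± 0.38. Il18, an epithelial cytokine released after inflammasome activation, counted 80.9, 77.3 and 84.1 CPM in code LI BM and 3.09, 5.25 and 6.63 CPM in BMT. The code SI groups overlapped, at 16.5, 16.5 and 26.4 CPM and 22.8, 6.26 and 14.6 CPM. Its regional difference was 3.50 ± 0.49 (adjusted p = 0.00177). Rnf152, a lysosomal ubiquitin ligase, fell by 3.11 ± 0.41 in code LI, with 0.05 ± 0.32 in code SI. Hoga1, a mitochondrial enzyme of hydroxyproline breakdown, had a regional difference of 3.48 ± 0.33 (adjusted p = 0.00017).

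Nutrient transporters moved in both directions. Of 17 tested, 6 rose and 5 fell in code LI and 5 rose and 3 fell in code SI, with 5 regional differences higher and 4 lower in code SI. Among those that fell in code LI only, Slc5a8, which takes up short-chain fatty acids, counted 307, 299 and 280 CPM in code LI BM and 47.8, 54.1 and 61.8 CPM in BMT. Code SI held 93.6, 101 and 85.1 CPM in BM and 77.2, 98 and 151 CPM in BMT. The code LI groups were far apart, the code SI groups overlapped. The effects in the 2 sets differed by 2.64 ± 0.21 (adjusted p = 6.55e-05). Slc16a1, a monocarboxylate carrier, fell by 1.26 ± 0.12 in code LI, with 0.14 ± 0.16 in code SI, and Slc2a5, the fructose transporter, fell by 1.83 ± 0.32, with 0.46 ± 0.22. On the other side, Slc7a9, an amino acid transporter subunit, rose by 1.79 ± 0.17 in code LI, with 0.23 ± 0.18 in code SI, and Slc6a20a, an imino acid transporter, fell by 0.85 ± 0.26 in code SI and rose by 1.22 ± 0.30 in code LI. Both were picked after their values were seen. Slc6a20a was not among the 16 opposite genes that kept every call whichever mouse was left out. Of 22 water and ion transport genes, 12 fell and 3 rose in code LI, and 6 fell and 4 rose in code SI, with 5 regional differences higher and 2 lower in code SI. Aqp4, a water channel of the basolateral membrane, fell in both sets, from 400 to 413 CPM down to 19.4 to 35.3 CPM in code LI and from 21.4 to 29 CPM down to 5.19 to 11.2 CPM in code SI, with effects of -3.82 ± 0.22 and -1.63 ± 0.26. The water channel Aqp1 fell as well, by 3.00 ± 0.14 and 1.91 ± 0.18. Its regional difference was lost with libraries of the most common lane only (adjusted p = 0.0743, range over alternatives 0.000209 to 0.0743).

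Fatty acid, retinol and drug metabolism genes had more regional differences on the side higher in code SI. Of 21 PPAR alpha and fatty acid oxidation genes, 11 fell and 3 rose in code LI, 2 fell and 4 rose in code SI, and 5 had a regional difference, all higher in code SI. Ehhadh, an enzyme of peroxisomal fatty acid oxidation, fell by 1.24 ± 0.12 in code LI, with -0.15 ± 0.16 in code SI, and its regional difference was lost without mouse 5 (adjusted p = 0.0528, range over alternatives 0.000363 to 0.0551). That of Acadm was lost without mouse 2, 4, 5, 6 or 10 (adjusted p up to 0.1735). That of Ppara was lost without mouse 2 or 5 (adjusted p up to 0.0856). Angptl4, a fasting-induced inhibitor of lipoprotein lipase, rose in code SI only, from 22.2, 24.1 and 39.6 CPM to 138, 129 and 61.1 CPM, while code LI held 5.04, 2.25 and 2.5 CPM in BM and 3.67, 3.73 and 1.05 CPM in BMT. Its groups were separate in code SI and overlapped in code LI. On the log2 scale the sets differed by 2.21 ± 0.41 (adjusted p = 0.00801). Of 20 xenobiotic P450 and conjugation genes, 15 fell and 1 rose in code LI, 9 fell and 3 rose in code SI, and 6 regional differences were higher and 2 lower in code SI. Nqo1, a quinone reductase, fell by 1.81 ± 0.18 in code LI with 0.00 ± 0.21 in code SI, whereas Cyp2c65, of a family with close copies whose reads may be shared, fell more in code SI (-3.62 ± 0.26) than in code LI (-0.68 ± 0.16). Of 13 retinol metabolism genes tested, 7 fell and 2 rose in code LI, and 2 fell and 2 rose in code SI. Their regional differences were higher in code SI for 5 and lower for 1. Adh1, an alcohol dehydrogenase that also oxidises retinol, counted 505, 622 and 587 CPM in code LI BM and 20.9, 97.4 and 89.3 CPM in BMT, and had an effect of -0.53 ± 0.36 in code SI.

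Rises called in code LI only numbered 312 (2.23%). Ang4, an antimicrobial angiogenin of Paneth and goblet cells with close copies in the genome (chromosome 14, 51763878 to 51773590, minus strand), counted 5.5, 5.39 and 15.1 CPM in code LI BM and 568, 586 and 733 CPM in BMT. In code SI it counted 499, 317 and 225 CPM in BM and 226, 361 and 557 CPM in BMT. The code LI level thus moved from under all 6 code SI libraries to above them all, while the code SI groups overlapped. Its effects differed between sets by -6.17 ± 0.58 (adjusted p = 0.00017). Pnliprp2, a pancreatic-type lipase, followed a like course, from 0.662, 0.539 and 1.21 CPM to 63.1, 62.3 and 61.2 CPM in code LI, against 258, 216 and 134 CPM and 92, 167 and 251 CPM in code SI. Only the code LI groups of Pnliprp2 were separate, and its regional difference was -6.51 ± 0.50 (adjusted p = 5.47e-05). Tgfbi, a secreted matrix protein, counted 1.17, 1.71 and 0.82 CPM in code LI BM and 41.2, 38.2 and 38.3 CPM in BMT, with an effect of 0.29 ± 0.39 in code SI. Slc28a2, a purine nucleoside transporter, and Plat, tissue plasminogen activator, rose by 5.13 ± 0.73 and 4.30 ± 0.49 in code LI, with 0.26 ± 0.46 and -0.61 ± 0.49 in code SI.

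**Figure D3:**
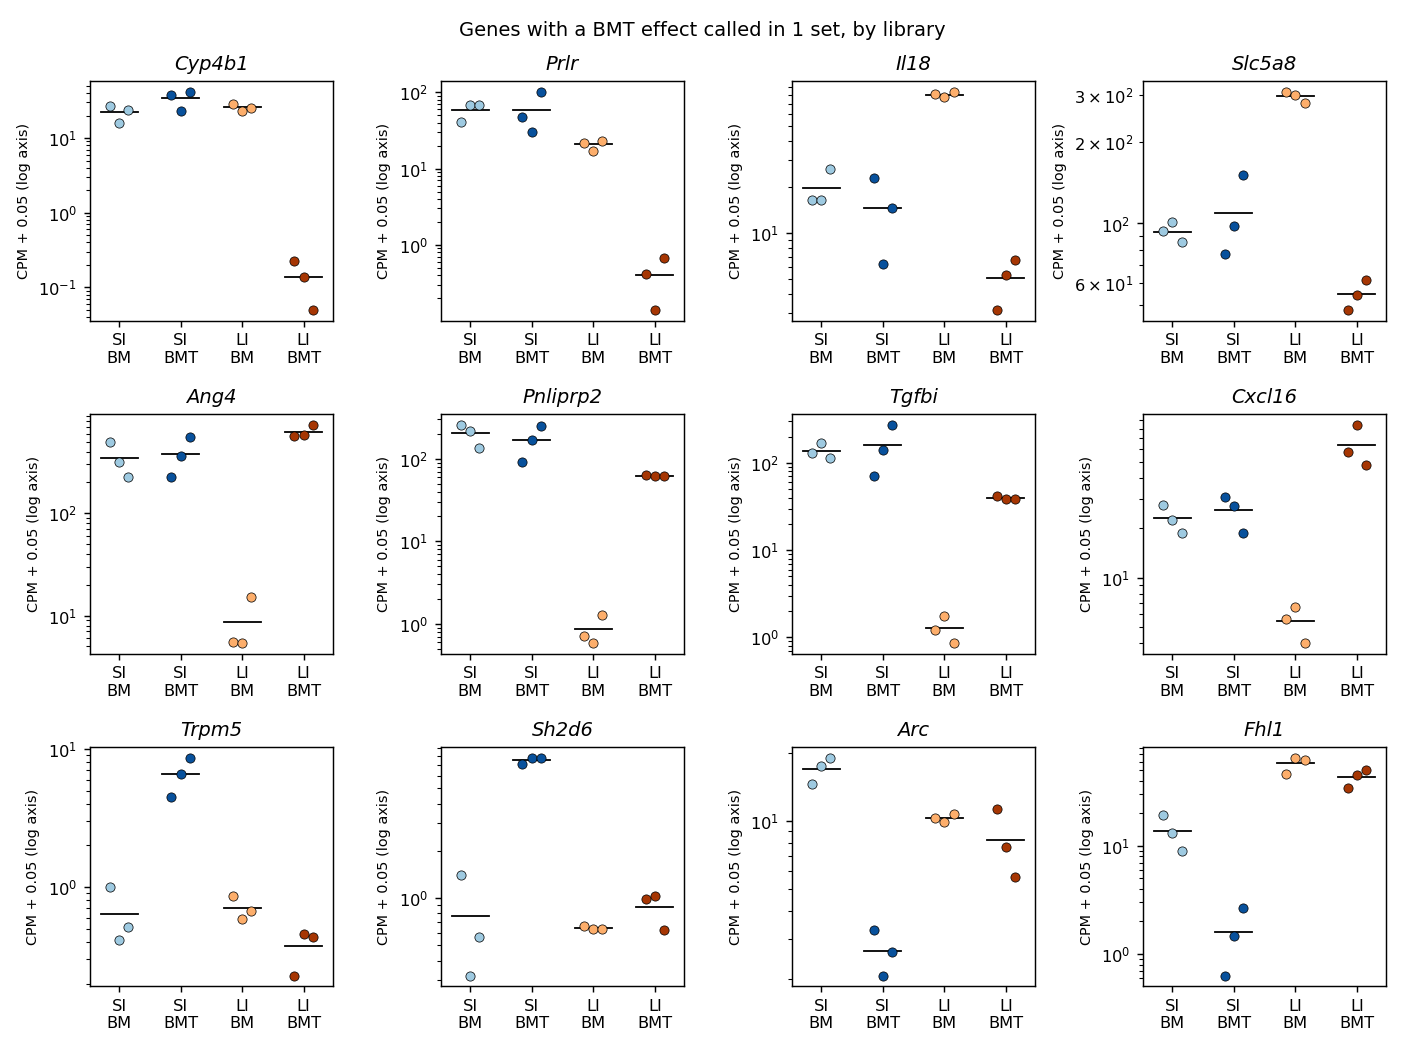
Levels of 12 genes whose BMT effect was called in 1 set only, in CPM + 0.05 on a log axis, with 1 point per library and a line at the group mean. The upper row holds falls in code LI, the middle row rises in code LI, and the lower row rises (Trpm5, Sh2d6) and falls (Arc, Fhl1) in code SI, as for Cyp4b1 with 22.7 to 28.8 CPM in code LI BM and 0 to 0.179 CPM in BMT.

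Falls called in code SI only numbered 99 (0.707%) and were frequent among enteroendocrine genes. Of 17 tested enteroendocrine genes, 14 fell and none rose in code SI, while 4 fell and 2 rose in code LI, and 10 had a regional difference, all lower in code SI. The median effect was -2.02 in code SI and -0.70 in code LI, and the summed level of the list was 580 to 763 CPM in code SI BM and 91.6 to 201 CPM in BMT, against 395 to 481 CPM and 290 to 524 CPM in code LI. Chga, the granule protein chromogranin A, counted 80.5, 72.6 and 88.3 CPM in code SI BM and 11.9, 28.8 and 31.3 CPM in BMT. Code LI held 59.5, 60.5 and 49.3 CPM in BM and 63.1, 104 and 77.6 CPM in BMT. Both sets were free of overlap and the effects were -1.68 ± 0.30 and 0.54 ± 0.18, but the code LI rise was lost without mouse 2, 4, 5 or 9 (adjusted p 0.0569 to 0.13, range over alternatives 0.00227 to 0.13). Tph1, the enzyme that starts serotonin synthesis, had effects of -1.74 ± 0.37 and 0.53 ± 0.18, and its code LI rise was lost without mouse 2, 4, 6 or 9 (adjusted p 0.00628 to 0.141 over the mice left out).

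Hormone genes gave a like picture. Gcg, the precursor of GLP-1, counted 258, 219 and 172 CPM in code SI BM and 19.7, 55 and 49.4 CPM in BMT. Code LI held 83.3, 96.4 and 77.1 CPM in BM and 25, 78.8 and 51 CPM in BMT. The code SI groups were separate and the code LI groups overlapped at 1 value, and the code LI fall passed the test without mouse 9 (adjusted p = 0.0157, range over alternatives 7.33e-05 to 0.208). The regional difference of -1.59 ± 0.22 (adjusted p = 0.00176) was lost without the mouse block (adjusted p = 0.0847, range over alternatives 3.72e-09 to 0.0847). Nts (neurotensin) fell by 2.26 ± 0.37, Cck (cholecystokinin) by 1.69 ± 0.40, Sst (somatostatin) by 2.41 ± 0.46 and Pyy (peptide YY) by 1.26 ± 0.41 in code SI, with -0.19 ± 0.24, 0.50 ± 0.49, -0.80 ± 0.45 and 0.19 ± 0.36 in code LI. In the same order the effects differed between the sets by -2.10 ± 0.56, -2.26 ± 0.45, -1.76 ± 0.39 and -1.50 ± 0.27 (adjusted p = 0.0433, 0.0113, 0.0205 and 0.00758). The regional call was lost without mouse 2, 4 or 5 for Nts (adjusted p up to 0.129) and without mouse 2 or 5 for Sst (up to 0.0653), and the code SI fall of Pyy was lost without mouse 2, 4, 6 or 10 (up to 0.183). The code LI effect of Sst passed the test without mouse 9 (adjusted p = 0.0333, up to 0.407 without other mice). Insl5, a hormone of colonic endocrine cells, was low in code SI BM at 3.82, 1.72 and 0.46 CPM and at 0, 0.129 and 0.0857 CPM in BMT, and its regional difference of -3.61 ± 0.89 was lost without mouse 4, 9 or 10 and without the mouse block (adjusted p 0.052 to 0.0846, range over alternatives 3.37e-09 to 0.217). The naming rule asks for at least 5 CPM in 1 group, which Insl5 reached in code LI only. Its code LI effect missed the test (adjusted p = 0.137, range over alternatives 4.715e-05 to 0.349).

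The regional differences called among Paneth, stem and goblet cell genes were all lower in code SI. Of 12 Paneth cell genes tested in both sets, 8 fell and 1 rose in code SI, 2 fell and 5 rose in code LI, and 6 had a regional difference, all lower in code SI. The summed level of all 18 genes listed was 19852 to 29365 CPM in code SI BM and 4604 to 8878 CPM in BMT, and 1241 to 1405 CPM in code LI BM and 2248 to 3149 CPM in BMT. Lyz1, the Paneth cell lysozyme, was at 4860 to 7191 CPM in code SI BM and 718 to 1241 CPM in BMT, but at 0.0477 to 5.12 CPM in code LI. Itln1, a lectin that binds microbial sugars, counted 61.6, 63.8 and 50.9 CPM in code LI BM and 302, 360 and 583 CPM in BMT. In code SI it counted 3231, 2747 and 2261 CPM in BM and 496, 1231 and 2250 CPM in BMT, with every BMT library below every control and an effect of -0.99 ± 0.43 that missed the test but passed without mouse 10 (adjusted p = 0.00734, range over alternatives 5.17e-06 to 0.301).

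Of 16 stem cell and Wnt target genes, 11 fell and none rose in code SI, while 6 fell and 3 rose in code LI, with 6 regional differences, all lower in code SI. The crypt base stem cell markers Lgr5, Olfm4 and Smoc2 were not among these. They fell in both sets, by 1.59 ± 0.18, 1.72 ± 0.17 and 1.16 ± 0.16 in code SI and by 2.75 ± 0.36, 3.62 ± 0.67 and 1.53 ± 0.37 in code LI. Their regional differences of 1.20 ± 0.38, 1.82 ± 0.72 and 0.47 ± 0.37 lay on the higher side in code SI and missed the test (adjusted p = 0.0829, 0.152 and 0.483). Rnf43, a Wnt-induced ligase that removes Wnt receptors, counted 72, 85.7 and 91 CPM in code SI BM and 33.8, 48.9 and 28.8 CPM in BMT. Code LI held 50.9, 40.4 and 46.5 CPM in BM and 51.5, 63.1 and 45.4 CPM in BMT. Its groups were separate in code SI and overlapped in code LI. The effects in the 2 sets differed by -1.37 ± 0.21 (adjusted p = 0.00317). Axin2, a feedback target of Wnt signalling, fell by 1.05 ± 0.18 in code SI with 0.23 ± 0.24 in code LI. The code LI effect of Axin2 passed the test without mouse 10 (adjusted p = 0.00459, up to 0.987 without other mice). Ascl2, a stem cell transcription factor, rose by 0.98 ± 0.25 in code LI, with -0.50 ± 0.25 in code SI. Its regional difference was lost without mouse 2 or 5 (adjusted p up to 0.0612), and its code LI rise without mouse 2 (adjusted p = 0.0524). Myc, a growth regulator and Wnt target, rose by 0.70 ± 0.20 in code LI, a call lost without mouse 4, 5 or 9 (adjusted p 0.0696 to 0.0795, range over alternatives 7.49e-05 to 0.0795).

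Of 18 goblet cell genes, 11 fell in code SI and 4 in code LI, where 1 rose, and 3 had a regional difference, all lower in code SI. Muc2, the main gel-forming mucin, counted 687, 398 and 414 CPM in code SI BM and 93.4, 175 and 223 CPM in BMT. Code LI held 569, 370 and 283 CPM in BM and 444, 227 and 458 CPM in BMT. The code SI groups were separate and the code LI groups overlapped, with a regional difference of -1.49 ± 0.40 (adjusted p = 0.0426), which was lost without mouse 2, 4, 5 or 6 (adjusted p 0.006 to 0.124 over the mice left out). Clca1, a protease of the mucus layer, rose by 2.11 ± 0.30 in code LI, with 0.43 ± 0.37 in code SI, and its regional difference was lost without the mouse block (adjusted p = 0.0897, range over alternatives 8.74e-16 to 0.0897). Other falls in code SI only were Arc, an activity-induced gene best known from neurons (14.6, 17.4 and 19.1 CPM against 3.24, 2.02 and 2.57 CPM, regional difference -2.31 ± 0.29), Fhl1, a LIM domain protein (-3.08 ± 0.47 in code SI and -0.41 ± 0.20 in code LI), and Syde1, a GTPase-activating protein (-1.90 ± 0.30 and 0.68 ± 0.46). In code LI, falls passed the test for Arc without mouse 6 (adjusted p = 0.038, range over alternatives 0.038 to 0.578) and for Fhl1 without mouse 10 (0.0159, range 0.0159 to 0.334). Mcpt1, a mucosal mast cell protease with close copies, fell by 2.93 ± 0.65 in code SI, and its regional difference was lost without the mouse block (adjusted p = 0.075, range over alternatives 1.28e-13 to 0.075).

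Rises called in code SI only numbered 71 (0.507%) and included tuft cell genes. Trpm5, the cation channel of chemosensory signalling, counted 0.955, 0.362 and 0.46 CPM in code SI BM and 4.4, 6.56 and 8.61 CPM in BMT. Code LI held 0.815, 0.539 and 0.625 CPM in BM and 0.179, 0.404 and 0.381 CPM in BMT. The code SI BMT libraries were above their controls, the code LI BMT libraries were below theirs without passing the test (-1.01 ± 0.43). On the log2 scale the sets differed by 4.56 ± 0.48 (adjusted p = 0.000341). Sh2d6, an adaptor found in tuft cells, counted 1.36, 0.271 and 0.511 CPM in code SI BM and 7.11, 7.81 and 7.8 CPM in BMT, with 0.572 to 0.987 CPM over the 6 code LI libraries. Dclk1, a tuft cell kinase, rose by 2.90 ± 0.59 in code SI, with -0.66 ± 0.38 in code LI, a fall that passed the test without mouse 10 (adjusted p = 0.0313, range over alternatives 0.0313 to 0.443). Of 7 tuft cell genes tested in both sets 5 rose and 1 fell in code SI, 2 rose and 2 fell in code LI, and 3 had a regional difference, all higher in code SI. The summed level of all 15 listed genes nevertheless was lower in BMT in both sets, at 376 to 465 CPM against 208 to 259 CPM in code SI and 372 to 383 CPM against 152 to 218 CPM in code LI. Trpm5, Sh2d6 and Avil, at most 8.61, 7.81 and 10.5 CPM in any library, were a small part of that sum, which mainly follows other listed genes. Zbtb16, the transcription factor PLZF, had 1 count in all code SI BM libraries and 1.16 to 1.96 CPM in BMT. The naming rule asks for at least 5 CPM in 1 group, which Zbtb16 reached in code LI and not in code SI. Its effect in code LI missed the test (adjusted p = 0.112), and its regional difference was 5.65. Syne1, a nuclear envelope protein, rose by 2.51 ± 0.41 in code SI.

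**Figure D4:**
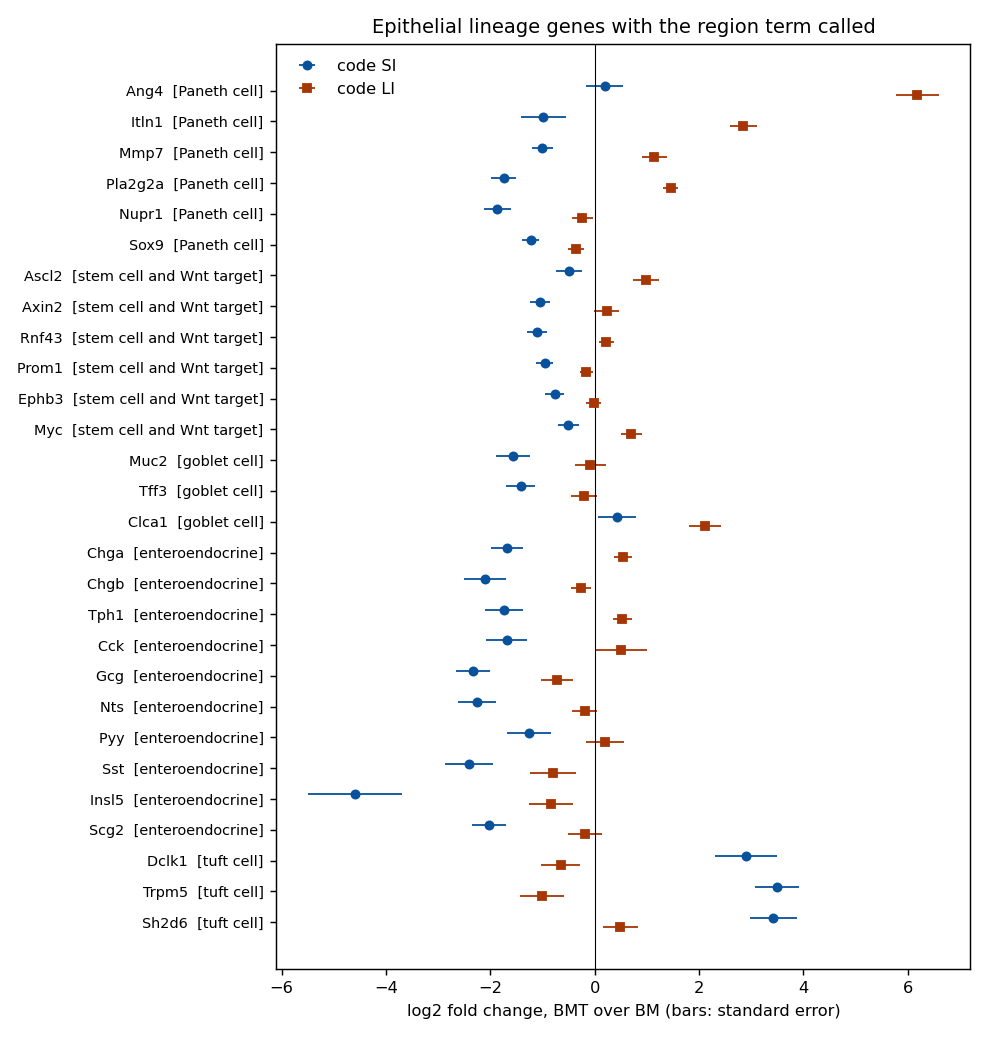
BMT effect (log2 fold change, bars: standard error, n = 3 against 3) in code SI (circles) and code LI (squares) of the Paneth, stem cell and Wnt, goblet, enteroendocrine and tuft cell genes that had a regional difference. The code SI value lies to the left of the code LI value in all but the 3 tuft cell genes, whose code SI effects are 2.90 to 3.50.

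Nearly the whole list of T cell genes rose in each set. Of 22 T cell genes 21 rose in each set, with median effects of 5.34 in code SI and 6.61 in code LI, and 3 (Skap1, Cd3g and Cd4) had a regional difference, all lower in code SI. Over all genes tested in both sets, 4.06% had a regional difference called lower in code SI. The median regional difference of the list was -1.25, against -0.018 over all genes. For the remaining members the regional difference missed the test, with values on both sides, such as -2.46 for Cd8a and 0.58 for Cd2. The summed level of the list was 45.5 to 47.2 CPM in code SI BM and 286 to 415 CPM in BMT, and 28.3 to 29.2 CPM in code LI BM and 506 to 812 CPM in BMT. Of 21 cytotoxic and effector genes, 20 rose in code SI and 21 in code LI, with 6 regional differences, all lower in code SI. Gzma, granzyme A of cytotoxic lymphocytes, counted 15.1, 1.49 and 6.29 CPM in code SI BM and 104, 157 and 229 CPM in BMT. Code LI held 0.56, 0.314 and 0.156 CPM in BM and 316, 223 and 201 CPM in BMT. No groups overlapped, the BM level was higher in code SI. The effects were 4.46 ± 0.64 and 9.53 ± 0.32. Rassf5, a Rap1 effector of lymphocyte adhesion, and Ptpn22, a phosphatase of T cell receptor signalling, rose by 1.85 ± 0.31 and 2.60 ± 0.23 in code SI and by 5.83 ± 0.31 and 6.69 ± 0.54 in code LI. The regional difference of Gzmb, granzyme B, was -3.02 ± 0.64 and was lost without mouse 2 or 5 (adjusted p = 0.0752 and 0.0549, range over alternatives 1.07e-20 to 0.0752). That of Cd3g was -2.15 ± 0.56 and was lost without mouse 2, 5 or 6 (adjusted p 0.0599 to 0.227, range over alternatives 7.84e-06 to 0.227).

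Myeloid genes had rises called mainly in code LI. Of 14 monocyte and macrophage genes 11 rose and 1 fell in code LI, 5 rose and 1 fell in code SI, and 6 had a regional difference, all lower in code SI. Lyz2, the lysozyme of macrophages, counted 1.99, 2.11 and 2.66 CPM in code LI BM and 54.3, 14.8 and 13.1 CPM in BMT, against 3.86, 1.85 and 3.68 CPM and 7.38, 2.02 and 2.66 CPM in code SI. Mouse 6 was the highest BMT library in both sets, and only the code LI groups were separate. Cd68, a macrophage lysosomal protein, rose by 2.74 ± 0.38 in code LI, with 0.10 ± 0.30 in code SI. Of 6 neutrophil genes tested, 5 rose and 1 fell in code LI, and 2 rose and 1 fell in code SI. The 2 with a regional difference, S100a9 and Lcn2, had it on the lower side in code SI. They counted 8.63, 2.06 and 1 CPM and 7.2, 1.21 and 0.811 CPM in code LI BMT, and at most 1.48 CPM in the other 9 libraries. In code LI, Cd177 of the same list was at 100 to 148 CPM in BM and 24.7 to 72.8 CPM in BMT. Its code SI levels were 33.7 to 50 CPM in BM and 5.7 to 14.8 CPM in BMT. The regional difference of Lcn2, -3.68 ± 0.85, was lost without mouse 2, 5 or 6 (adjusted p 0.0612 to 0.095, range over alternatives 2.2e-07 to 0.095). The neutrophil granule genes Mpo and Elane were at most 0.0781 CPM in every library. The part of leukocyte RNA in the regional differences of other genes was not tested.

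Most interferon gamma response and MHC class II genes rose in each set, as did smaller shares of the type I interferon response genes. Of 30 interferon gamma response genes, 29 rose and 1 fell (Casp4, an inflammatory caspase, at -0.62) in code SI and 28 rose in code LI, with medians of 2.65 and 2.21, and 2 regional differences were higher and 1 lower in code SI. Of 10 MHC class II genes, 9 rose in each set, with medians of 3.04 and 3.03 and no regional difference. Of 28 type I interferon response genes 15 rose in code SI and 22 in code LI, with 5 regional differences, all lower in code SI. Oas2, an RNA sensor of a family with close copies, counted 4.45, 2.62 and 8.95 CPM in code SI BM and 2.97, 6.52 and 7.67 CPM in BMT. Code LI held 4.43, 4.8 and 6.64 CPM in BM and 15.3, 30.3 and 37 CPM in BMT. Groups overlapped in code SI and were separate in code LI. Its effects differed between sets by -2.14 ± 0.33 (adjusted p = 0.00329). Ubd, an interferon-induced ubiquitin-like protein, rose by 3.83 ± 0.23 in code SI and by 4.74 ± 0.30 in code LI. Its regional difference was lost without mouse 2, 4 or 5 and without the mouse block (adjusted p 0.0745 to 0.161), and with all 18 libraries (adjusted p = 0.695). Of 23 chemokine and cytokine genes, 9 regional differences were lower and 2 higher in code SI. Cxcl16, which attracts T cells that carry CXCR6, counted 5.55, 6.6 and 3.98 CPM in code LI BM and 58.1, 84.6 and 48.4 CPM in BMT. The code SI groups overlapped, at 18.7 to 27.4 CPM and 18.6 to 30.7 CPM. Its regional difference was -3.38 ± 0.26 (adjusted p = 5.47e-05).

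Of 24 cell cycle genes, 11 rose in code SI and 22 in code LI, and none fell. A regional difference was called for 7 of them, all lower in code SI, among them the DNA replication genes Cdc6 and Mcm3 with effects of -0.06 ± 0.20 and 0.21 ± 0.23 in code SI and 1.35 ± 0.17 and 1.34 ± 0.16 in code LI. In code LI, Mcm3 counted 48.9, 40.6 and 47.2 CPM in BM and 130, 133 and 82.9 CPM in BMT. Its level in code SI was 91.6, 99.8 and 102 CPM in BM and 142, 126 and 64.1 CPM in BMT, so that the BMT library of mouse 10 lay below and the other two above the controls. The code SI rise of Mcm3 passed the test without mouse 10 (adjusted p = 0.0324, range over alternatives 0.0324 to 0.986).

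Genes that fell in both sets but unequally included the carboxylesterases, whose close copies make single counts uncertain. Ces1g, a triglyceride and cholesteryl ester hydrolase, counted 184, 143 and 190 CPM in code LI BM and 0.134, 0.0449 and 0.238 CPM in BMT, against 13, 6.06 and 2.66 CPM and 0.584, 1.03 and 1.33 CPM in code SI. Groups were separate in both sets and the effects were -10.23 ± 0.30 and -2.83 ± 0.55. Maob, a monoamine oxidase, fell by 4.98 ± 0.59 in code LI and by 1.34 ± 0.38 in code SI, where the call was lost without mouse 2, 5, 6 or 9 (adjusted p 0.0545 to 0.1, range over alternatives 1.58e-10 to 0.1). With all mice, that code SI call was also lost with DESeq2 (adjusted p = 0.0866).

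**Figure D5:**
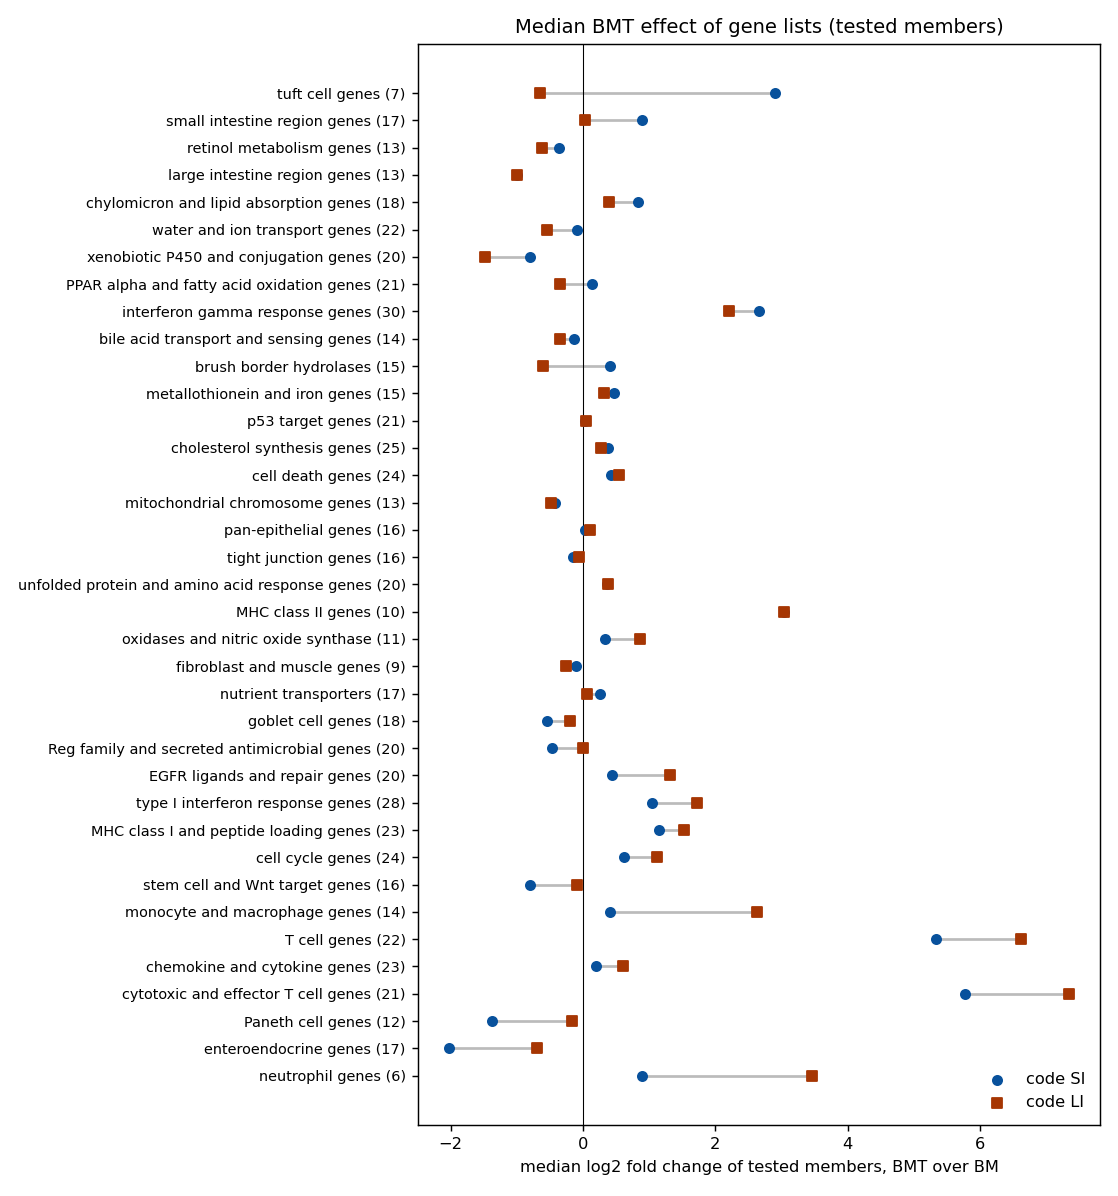
Median BMT effect (log2 fold change) of the tested members of each list with at least 5 members tested in both sets, for code SI (circles) and code LI (squares), ordered by the median regional difference, with the number of tested members in parentheses. Tuft cell genes stand at 1 end with medians of 2.90 and -0.66, and interferon gamma and MHC class II genes have like medians in both sets; no test of the lists was made.

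The series title names bile acid metabolism, so genes of bile acid handling were looked at in any case. Slc51a and Slc51b, the subunits of the basolateral bile acid exporter, rose in code LI by 0.73 ± 0.15 and 1.76 ± 0.13, with -0.27 ± 0.20 and 0.44 ± 0.19 in code SI. Slc51b counted 30.7, 33.5 and 33.9 CPM in code LI BM and 115, 104 and 111 CPM in BMT. Code SI held 362, 284 and 266 CPM in BM and 411, 344 and 442 CPM in BMT. The code LI groups were widely separate and the code SI groups overlapped, with a regional difference of -1.32 ± 0.22 (adjusted p = 0.00448). That of Slc51a, -1.04 ± 0.21, was lost without mouse 5 or 6 (adjusted p = 0.0641 and 0.0513, range over alternatives 0.000127 to 0.0641).

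Slc10a2, the apical uptake transporter of the ileum, rose in code SI from 334, 459 and 334 CPM to 887, 547 and 1101 CPM, and code LI held 80.6, 78.3 and 72.4 CPM in BM and 133, 66.2 and 37.8 CPM in BMT. The code LI BMT libraries lay on both sides of their controls, and the regional difference of 1.28 ± 0.45 missed the test (adjusted p = 0.114) but passed without mouse 6 (adjusted p = 0.0329, range over alternatives 3.32e-06 to 0.365). Fabp6, the ileal bile acid binding protein, fell in code SI from 9995, 7270 and 7440 CPM to 3590, 1184 and 3761 CPM and by 2.45 ± 0.41 in code LI, where it was at 0.853 to 11.9 CPM. The code SI fall of Fabp6 was lost without mouse 2 (adjusted p = 0.0687, range over alternatives 1.77e-12 to 0.0687). The bile acid receptors Nr1h4 (FXR) and Vdr had regional differences of -0.23 ± 0.21 and 0.16 ± 0.21 that missed the test. Fgf15, the hormone that FXR induces in the ileum, and Nr0b2, an FXR-induced repressor, were tested in code SI only, with effects of -1.81 ± 0.72 and -0.42 ± 0.68 that missed the test. The fall of Fgf15 passed without mouse 10 (adjusted p = 0.0269) and without the low-count filter (adjusted p = 7.57e-19). The second value comes from the same libraries as the main fit (adjusted p = 0.0939) and is no added evidence. Without that filter, code SI values of other genes shifted too. Itln1 went from 0.1235 to 5.17e-06 and Chac1 from 0.058 to 1.34e-07, while Ctse went from 0.0462 to 0.0507. Gpbar1, the membrane bile acid receptor, was at most 0.364 CPM and tested in neither set.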

How the data were processed

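Gene counts as deposited by the authors are raw whole numbers, in a table of 53379 genes by 18 libraries. The submitters' processing notes name the build GRCm38.p5 and the tools STAR 2.7.0e, featureCounts 1.6.3 and FastQC 0.11.9. Neither the annotation release nor the strand setting is stated in these sources, so counts of overlapping, antisense and closely copied genes are uncertain, and BALB/c reads met a C57BL/6J reference. Groups followed the library codes in the descriptions, not the titles.

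Counts of the 12 libraries were fitted in R 4.3.3 with edgeR 4.0.16 (expression filter by group, TMM scaling, two-sided quasi-likelihood F-test, Benjamini-Hochberg adjustment over all genes tested, calls at 0.05). Each set was fitted alone, 3 BM against 3 BMT libraries, and the regional difference in 1 model with mouse as a block. A standard error is the size of the log2 value over the square root of F. CPM values use library totals. Deviations of same-numbered libraries correlated at -0.09 to 0.26. The same-numbered code LI library was the best match within its treatment for mice 5, 6 and 10, and not for mice 2, 4 and 9. The pairing thus rests on the descriptions. Chi-square per degree of freedom between replicates was 10.1 to 79.5, so none was a duplicate. Scripts were tested on simulated counts.

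The genes, lists and naming rule were chosen with earlier results of these data known. The rule took the 5 largest regional differences per response class among named genes with at least 5 CPM in 1 group and no overlap in the sets called, the 2 smallest p per list with a call, and 9 bile acid genes. Of the genes it named, Elf3, Acta2, H2-K1 and Trib3 missed the regional test and are not described, and 2 others are not reported here. Other list members given with values, Slco3a1, Ugdh, Gclc, Entpd5, Hnf4g and the genes with upstream sequences were chosen after their values were seen. Alternatives covered scaling, tool, filters, block, lane, mitochondrial genes, liver libraries and each mouse left out.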

Additional observations from a re-analysis of the deposited data

Results flagged for a closer look

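The BMT effect differed between code SI and code LI by the test of the difference itself (quasi-likelihood F-test of edgeR, adjusted over all genes) for 491 genes on the higher side and 568 on the lower side in code SI. The values below are the log2 regional difference, code SI minus code LI, of the genes named by the rule that passed that test, grouped by the sets in which their own effects were called. Genes that rose in code SI and fell in code LI had values as follows: Adora2b 5.58, Ctse 3.89, Ace 3.17, Papss2 3.01, Ephx2 2.79, Anpep 2.56 and Sis 2.29. Genes that fell in code SI and rose in code LI had values as follows: Fam234b -4.51, Nos2 -4.06, Itgam -3.41, Sema7a -3.39, Pla2g2a -3.24, Chga -2.32 and Phlda3 -2.85. Genes that rose in code SI only had values as follows: Zbtb16 5.65, Trpm5 4.56, Dclk1 3.59, Syne1 3.23, Sh2d6 3.09, Cyp3a13 1.02 and Angptl4 2.21. Genes that fell in code SI only had values as follows: Insl5 -3.61, Mcpt1 -3.35, Fhl1 -2.73, Syde1 -2.63, Arc -2.31, Igha -3.15, Igkc -3.12, Rnf43 -1.37 and Tff3 -1.20. They were joined by Gcg -1.59. Genes that rose in code LI only had values as follows: Pnliprp2 -6.51, Ang4 -6.17, Tgfbi -4.96, Slc28a2 -4.85, Plat -4.77, Krt18 -1.06, Lyz2 -3.10, Cd68 -2.60 and S100a9 -6.72. They were joined by Lcn2 -3.68, Itln1 -4.02, Myc -1.22, Clca1 -1.82, Slc51b -1.32, Cldn4 -1.88, Oas2 -2.14, Mx1 -1.75 and Cxcl16 -3.38. To these come Plaur -1.90, Gsdmd -0.96, Chac1 -2.07, Cdc6 -1.44, Mcm3 -1.18, Slc30a2 -2.76 and Slc51a -1.04. Genes that fell in code LI only had values as follows: Cyp4b1 8.71, Prlr 5.91, Il18 3.50, Hoga1 3.48, Rnf152 3.10, Pla2g12b 1.63, Slc5a8 2.64, Slc2a5 2.36 and Adh1 2.73. They were joined by Nqo1 1.81, Ccng1 0.94, Stard4 0.89, Ehhadh 1.08 and Slc30a10 1.72. Genes that rose in both sets, unequally had values as follows: Runx2 -5.05, Gzma -4.97, Gpr55 -4.25, Ptpn22 -4.12, Rassf5 -3.92, Car4 1.07, Skap1 -2.85, Cd3g -2.15 and Gzmb -3.02. They were joined by Vim -1.88, Creb3l3 -2.36, Gpx2 -0.97, Iigp1 2.28, Ubd -0.90, Tapbp -0.80 and Ly6e -1.82. Genes that fell in both sets, unequally had values as follows: Ces1d 7.69, Ces1g 7.56, Pbld1 3.92, Cyp2c66 -3.88, Maob 3.86, Aqp4 2.17, Aqp1 1.07, Cldn8 -2.46 and Cyp2c65 -2.87. They were joined by Ttr 3.54. Part of these calls rested on the model or on single mice. Without the mouse block the calls of Insl5, Mcpt1, Cyp2c66, Car4, Clca1, Tff3, Gcg, Cldn8, Ubd, Mx1, Tapbp, Chac1 and Slc30a10 were lost (adjusted p 0.0633 to 0.187). Leaving out at least 1 of the mice ended those of Itgam, Insl5, Runx2, Ces1d, Cyp2c66, Car4, Krt18, Skap1, Cd3g, Gzmb, Igha, Igkc, Lcn2 and Tff3. The same held for Cyp3a13, Cldn8, Gpx2, Iigp1, Ubd, Mx1, Tapbp, Ccng1, Gsdmd, Chac1, Stard4, Ehhadh and Slc51a, with adjusted p of 0.0502 to 0.227 over both groups of genes. With all 18 libraries Krt18, Lcn2, Cyp3a13, Gpx2, Ubd, Tapbp, Gsdmd, Chac1, Stard4 and Ehhadh missed the test (adjusted p 0.052 to 0.695). With the most common lane only, where mouse 6 was the only complete BMT pair, Pbld1 and Aqp1 missed the test. So did Insl5, Ces1d, Cyp2c66, Car4, Igha, Igkc, Cldn8, Gpx2, Ubd, Tapbp and Ehhadh.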

How the results depend on the processing

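The regional differences of the named genes were recomputed under each alternative that tested them. None reversed its sign where the main fit or the alternative called it. Sign changes of genes called in neither fit were not counted. Without the replicate block, 501 genes were higher and 531 lower in code SI, with 858 shared with the blocked model. All 18 libraries gave 472 and 456, RLE scaling 509 and 571, and a fit without mitochondrial genes 522 and 581. DESeq2 gave 700 and 704, with 111 rises in code SI only. Without the low-count filter there were 1050 higher and 1071 lower, with 70 opposite genes up and 71 down in code SI, 173 rises and 195 falls in code SI only, 470 and 542 in code LI only, and 314 rises and 187 falls in both. The stricter filter gave 936 rises and 1022 falls in code SI, 24 opposite genes up and 18 down, 37 rises and 61 falls in code SI only, and 69 rises in both. The most common lane, which leaves 5 libraries per set and mouse 6 as the only complete BMT pair, gave 83 opposite genes up in code SI and 204 rises in both. At an adjusted p of 0.01 there were 6 opposite genes up and 8 down, 26 rises and 26 falls in code SI only, 112 and 106 in code LI only, and 21 and 25 in both.

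With each mouse left out, regional differences were 215 to 1143 higher and 252 to 876 lower. Opposite genes ranged from 10 to 91 up and 13 to 53 down, code SI only from 29 to 260 rises and 50 to 147 falls, code LI only from 143 to 484 and 133 to 604, and both from 39 to 189 and 34 to 133. BMT effects ranged from 994 to 1868 rises and 1041 to 1814 falls in code SI, and from 2367 to 3522 and 2289 to 3493 in code LI. The regional call held without any mouse for 376 genes, and 63 of the 97 named genes that were called kept the call under every alternative. The cause of these changes was not tested.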

Other observations

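The distance between the regions of a mouse did not separate the groups. The median absolute difference of log2(CPM + 1) between the code SI and code LI library of 1 mouse, over 14006 genes, was 0.371, 0.311 and 0.337 in BM mice 2, 4 and 5 and 0.339, 0.28 and 0.378 in BMT mice 6, 9 and 10. The means were 0.34 ± 0.0301 and 0.332 ± 0.0497 (SD, n = 3 each), with p = 1 by a two-sided exact permutation test, which with 3 against 3 mice cannot go below 0.1. This measure was chosen after the data were seen.

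Genes that passed the expression filter in 1 set only entered no regional test. In code SI 615 such genes had 48 rises and 156 falls, and in code LI 874 such genes had 216 rises and 262 falls. Defa24, a Paneth cell defensin with close copies, was at 3590 to 6074 CPM in code SI BM and 660 to 1603 CPM in code SI BMT, and at most 5.39 CPM in code LI. Hoxb13, a transcription factor of the distal colon, was at 0 in all code SI libraries, at 140 to 170 CPM in code LI BM, and at 41.9, 110 and 164 CPM in code LI BMT.

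Ly6g, a surface protein used as a neutrophil marker, counted 70.7, 75.5 and 78.7 CPM in code LI BM and 1363, 656 and 1055 CPM in code LI BMT, while the granule genes Mpo and Elane were at most 0.0781 CPM in these libraries. In code SI Ly6g was at 0 to 0.546 CPM in BM and 4.41 to 15.4 CPM in BMT. It belongs to a family with close copies, between which reads are hard to assign.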
